A study of Mus musculus with 6 samples.

Results

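The 9 genes described here encode transcription regulators of adipogenesis, the conversion of a mesenchymal precursor into a fat cell. They were picked by gene symbol (Pparg, Cebpa, Cebpb, Cebpd, Zfp423, Ebf1, Ebf2, Ppargc1a and Prdm16) by a rule that names no measured value, although earlier results of these data were known, and all 9 of the 9 were present among the 52997 symbols of the count table. Of the 9, 6 had enough reads to be tested between tissues, and Cebpa, Cebpb and Ppargc1a did not. RNA was sequenced from mesenchymal stromal cells of C57BL/6 mice, a common laboratory strain, aged 8 weeks and kept at homeostasis. One group came from hindlimb skeletal muscle (3 libraries) and the other from inguinal, axillary, brachial and cervical lymph nodes (3 libraries), each library holding 1000 sorted cells. No genetic change or treatment is named for either group, and the sources used here do not give the sorting markers. A pair of muscle sample titles carries the same number with different letters, so it is not known here whether all muscle libraries come from separate animals.

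As background, adipogenesis runs through a cascade of transcription factors. C/EBP-beta and C/EBP-delta act early and induce PPAR-gamma and C/EBP-alpha, which maintain each other and switch on genes for lipid uptake and storage. EBF1, EBF2 and the zinc finger protein ZFP423 act in committed precursors upstream of PPAR-gamma. PRDM16 and the coactivator PGC-1-alpha, encoded by Ppargc1a, are known for the brown and beige thermogenic programme. In skeletal muscle, PDGFRA-positive stromal cells (fibro-adipogenic progenitors) are a known source of fat cells after injury, and lymph nodes lie embedded in fat.

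Total counts ran from 415460 to 2397134 per library, the lowest in muscle library 4. The labelled cell type was met by its markers: 8 summed stromal markers (Pdgfra and Col1a1 among them) reached between 33300 and 41300 CPM (counts scaled to a library size of 1e+06) in muscle and between 43500 and 54100 CPM in lymph node. Adipocyte markers were near 0, with 6 genes summing to between 0 and 2.11 in muscle and between 3.19 and 4.30 CPM in lymph node and with Retn at 0 counts in all 6 libraries. Muscle library 4 stood apart: across 10823 tested genes its log2 CPM had r = 0.702 and 0.705 with the other muscle libraries, which had r = 0.952 with each other. In it B cell markers summed to 2020 CPM (17.7 to 261 CPM in the other 5 libraries), T cell markers to 427 CPM (2.28 to 10.9 CPM) and myeloid markers to 228 CPM (14.2 to 30.5 CPM). Erythroid markers there summed to 621 CPM (4.57 to 10.8 CPM elsewhere). The tests below are therefore also given without muscle library 4.

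Pparg is the tested member with the largest fold change between tissues, and its counts pool 7 annotated transcripts. The gene lies on chromosome 6 at 115360951 to 115490399 on the plus strand (GRCm38, GENCODE M21). RefSeq (GRCm38.p6) holds 3 promoter windows for it, each from 250 bases before to 50 bases after a transcription start, and they are shown because the counts do not tell which start was used. Capitals mark matches, on either strand, to 8 short motifs searched for in each window. Positions of matches are counted from the first transcribed base as 0.
Pparg, chr6:115360894-115361193: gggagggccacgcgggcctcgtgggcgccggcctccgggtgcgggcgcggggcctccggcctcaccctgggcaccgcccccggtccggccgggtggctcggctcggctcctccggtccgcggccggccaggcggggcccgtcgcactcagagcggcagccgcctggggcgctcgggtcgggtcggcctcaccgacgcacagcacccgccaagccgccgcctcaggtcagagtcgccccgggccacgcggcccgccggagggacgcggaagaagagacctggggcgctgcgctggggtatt
Pparg, chr6:115362099-115362398: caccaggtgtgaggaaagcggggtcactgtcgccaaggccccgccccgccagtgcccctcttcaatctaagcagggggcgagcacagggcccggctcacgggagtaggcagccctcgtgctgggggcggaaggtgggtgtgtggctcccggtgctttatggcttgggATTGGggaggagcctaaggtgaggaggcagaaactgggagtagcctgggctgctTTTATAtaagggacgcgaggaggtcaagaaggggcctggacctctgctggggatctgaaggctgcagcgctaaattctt
Pparg, chr6:115421816-115422115: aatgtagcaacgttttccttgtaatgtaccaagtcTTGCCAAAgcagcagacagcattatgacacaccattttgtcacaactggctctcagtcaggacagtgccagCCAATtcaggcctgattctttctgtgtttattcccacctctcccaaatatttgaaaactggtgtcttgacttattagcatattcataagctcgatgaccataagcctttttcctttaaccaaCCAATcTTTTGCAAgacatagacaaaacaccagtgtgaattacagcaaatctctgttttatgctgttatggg

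The motifs were the C/EBP site TTGCNNAA (present in 10.8% of 32851 promoter windows of this length), the CCAAT box CCAAT (37.4%), the EBF core CCCNNGGG (13.7%) and the TATA box TATAAA (13.6%). The others were the cyclic AMP response element TGACGTCA (1.79%), the AP-1 site TGANTCA (7.81%), the STAT site TTCNNNGAA (8.30%) and the E-box CACGTG (7.15%). No pair of matches overlapped in the Pparg windows. The first window, with 80.3% G and C, held no match. The second held a TATA box at -29 and a CCAAT box at -83. The third, with 40.3% G and C, held C/EBP sites at -215 and -16 and CCAAT boxes at -144 and -22. A C/EBP match here describes letters only and does not show binding. Of the 9 genes, 7 had windows in the table (11 windows in all).

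Zfp423, whose level was higher in muscle, has a pair of windows on the minus strand of chromosome 8, and the upstream one is shown as the other window of the set with C/EBP matches, at -131 and 22.
Zfp423, chr8:87959546-87959845: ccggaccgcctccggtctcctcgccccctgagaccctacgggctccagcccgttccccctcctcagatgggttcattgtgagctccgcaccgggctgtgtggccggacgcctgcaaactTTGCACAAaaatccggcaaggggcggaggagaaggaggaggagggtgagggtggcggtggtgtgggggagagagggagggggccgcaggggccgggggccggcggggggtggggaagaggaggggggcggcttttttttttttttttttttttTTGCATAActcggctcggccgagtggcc

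Per kilobase of exon, the scale on which levels of different genes can be compared, the EBF genes had the highest means in both tissues. Ebf1 measured 52.5 ± 7.73 CPM per kb in muscle and 57.8 ± 5.05 CPM per kb in lymph node (SD, n = 3 each, as for all means below). Ebf2 measured 38.1 ± 11.2 and 48.0 ± 4.46 CPM per kb. In each tissue the lowest Ebf1 library was above the highest Ebf2 library, so this order held in every library, with a median Ebf1 to Ebf2 ratio of 1.30. Cebpd followed at 46.3 ± 27.1 CPM per kb in lymph node, where its range of 28.2 to 77.4 overlapped those of both EBF genes, and at 10.8 ± 8.18 CPM per kb in muscle. In muscle Cebpd was next to Zfp423 (10.3 ± 1.60 CPM per kb), and these neighbours overlapped through muscle library 4, without which Cebpd (mean 15.5 CPM per kb) lay above Zfp423 (10.9 CPM per kb) in both muscle libraries. In lymph node the place after Cebpd was taken by Pparg (7.93 ± 2.11 CPM per kb), ahead of Zfp423 (5.23 ± 1.17 CPM per kb) with overlapping ranges. In muscle Pparg had the lowest mean of the 9 genes, 0.293 ± 0.266 CPM per kb, and 0.439 CPM per kb without muscle library 4, next to Prdm16 at 0.491. Cebpa, Cebpb, Prdm16 and Ppargc1a stayed between 0 and 4.08 CPM per kb in every library, and their ranges over the 6 libraries overlapped.

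**Figure D1:**
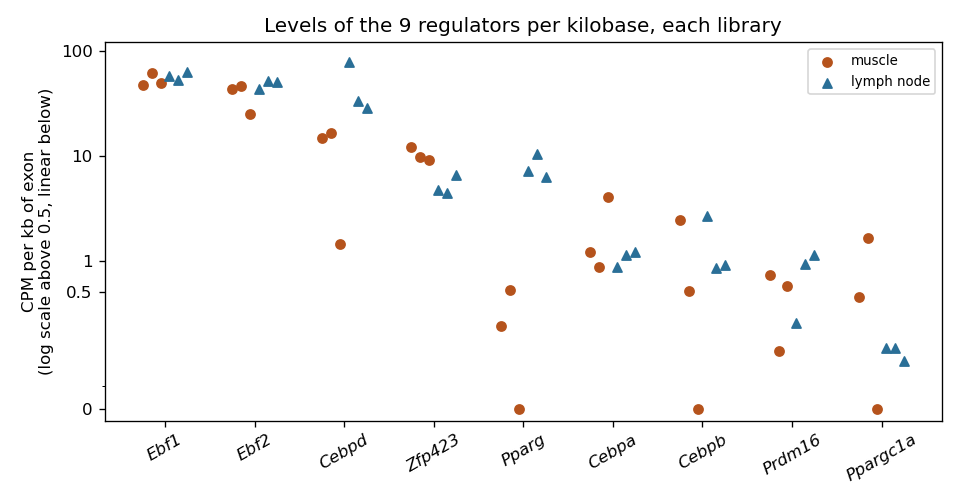
Levels of the 9 genes in CPM per kilobase of exon (vertical axis, logarithmic above 0.5 and linear below), with each muscle library as a circle and each lymph node library as a triangle. Ebf1 and Ebf2 lie between 25.2 and 63.0 in all libraries, whereas Pparg lies between 6.32 and 10.3 in lymph node and between 0 and 0.520 in muscle.

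The comparison of tissues asked which regulators stromal cells of muscle and of lymph node carry at different levels. Pparg fell in muscle, 19.9-fold, whereas the precursor factors Ebf1 and Ebf2 were not called, with fitted fold changes of 1.24 or less. Cebpd was below and Zfp423 above the lymph node range in each muscle library, and neither passed the test with all 6 libraries. With all 6 libraries 1 of the 6 tested members was called lower in muscle and 0 were called higher (edgeR quasi-likelihood F test, adjusted p below 0.05). Pparg, the member called, was near 0 in muscle and passed the filter for testing through lymph node alone, so this count does not describe all members. Among all 10823 genes tested, 4.32% were called, 2.86% lower and 1.46% higher in muscle. Without muscle library 4 the members called were 3 of 6, with Cebpd lower and Zfp423 higher besides Pparg, against 12.4% of all genes. DESeq2 on all 6 libraries called the same 3, with 1 higher and 2 lower in muscle, against 6.35% of all genes (2.41% higher and 3.94% lower). Muscle and lymph node ranges were separate for 3 of the 6 members, against 23.6% of all tested genes. On the scale of log2 fold change (muscle minus lymph node) the 6 members had a median of -0.47, beside 0.02 for all tested genes.

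**Figure D2:**
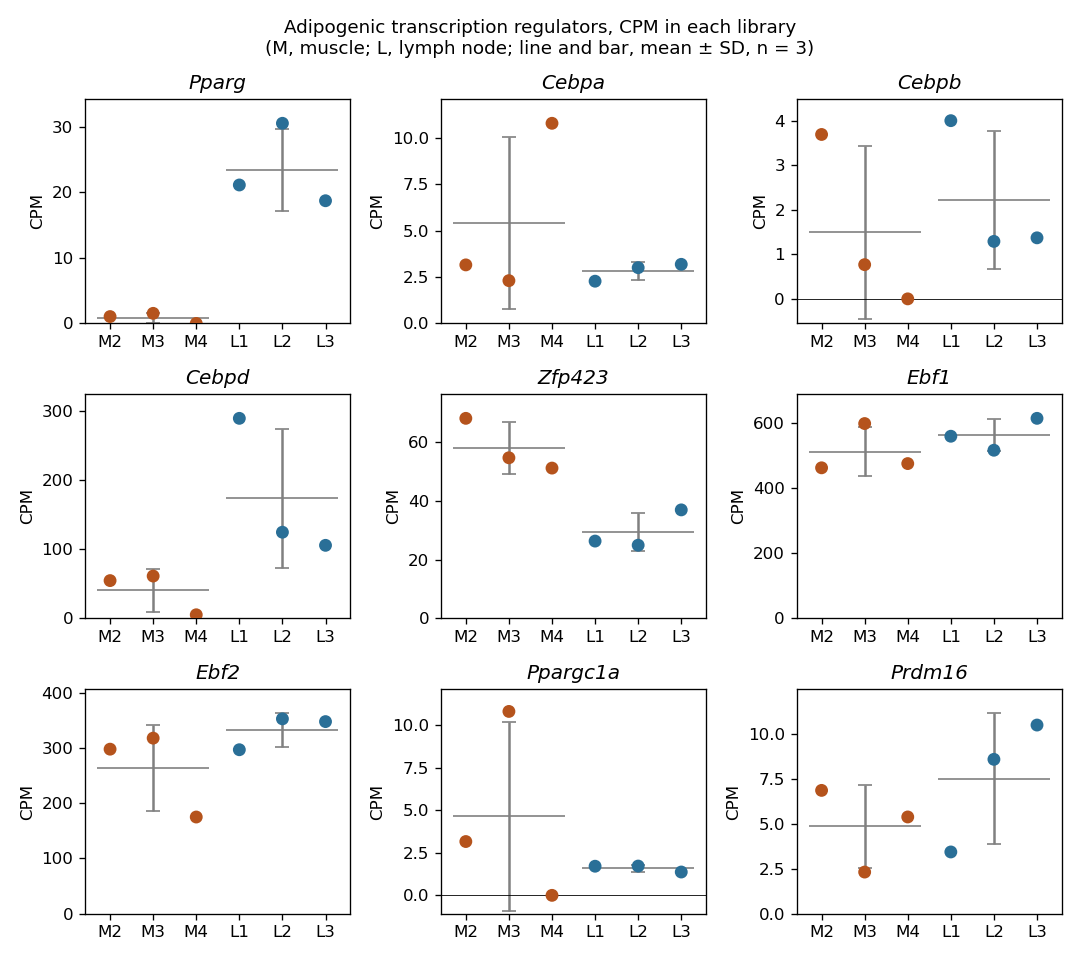
CPM of each gene in muscle libraries 2, 3 and 4 (M) and lymph node libraries 1, 2 and 3 (L), one panel per gene on its own linear scale, with the mean as a line and the SD as a bar. Pparg is at most 1.54 in muscle and at least 18.7 CPM in lymph node, and Zfp423 shows the opposite order, with at least 51.1 in muscle and at most 36.9 CPM in lymph node.

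Pparg encodes the nuclear receptor that is required for fat cell formation. It measured 1.05, 1.54 and 0 CPM in muscle libraries 2, 3 and 4 and 21.1, 30.5 and 18.7 CPM in lymph node libraries 1, 2 and 3. Every muscle library was below every lymph node library. In reads this is 4 counts over the muscle libraries and 149 over those of lymph node, 21.2 times as many per library size (95% counting interval 8.10 to 78.8). The 0 in muscle library 4 allows up to 8.06 CPM at that library's depth, which is still below the lowest lymph node value. The log2 fold change was -4.31 ± 0.58 (SE, 95% interval -5.61 to -3.02, edgeR adjusted p = 0.00341). Without muscle library 4 it was -4.17 ± 0.52 (edgeR adjusted p = 7.70e-05), and the call held without any 1 of the 6 libraries (adjusted p up to 0.0391). In bulk samples a smaller number of cells with the transcript and less transcript per cell cannot be told apart. The lymph node level was measured in libraries where the summed adipocyte markers were also higher (3.19 to 4.30 against 0 to 2.11 CPM), at most 4.30 CPM for 6 genes together. These sums rest on few reads. The 0 is from muscle library 4, where 3 counts equal 8.06 CPM, so that library cannot show a lower sum. Immediate early genes, which respond fast to stress and tissue dissociation, moved the same way as Pparg. Of these, 10 genes summed to between 2680 and 3310 in muscle and between 19900 and 21600 CPM in lymph node, and all 10 were called lower in muscle. Their part in the Pparg difference was not tested.

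Among the C/EBP genes, Cebpd encodes an early factor that is also induced by inflammatory signals. It measured 54.9, 61.5 and 5.38 CPM in muscle libraries 2, 3 and 4 and 290, 125 and 106 CPM in lymph node libraries 1, 2 and 3. The groups did not overlap, but each had a library far from the other pair: muscle library 4 was low, at 2 counts, and lymph node library 1 was high. Its log2 fold change was -1.92 ± 0.56 (edgeR adjusted p = 0.106), and -1.58 ± 0.36 (adjusted p = 0.00851) without muscle library 4. DESeq2 on all 6 libraries called it lower (log2 fold change -2.03, adjusted p = 0.0129), and limma-voom did not (adjusted p = 0.0992). Without lymph node library 1 it was -1.37 (edgeR adjusted p = 0.418). The immediate early sums given above moved with Cebpd between tissues too. Within tissues they were 2760, 3310 and 2680 CPM in muscle libraries 2, 3 and 4. In lymph node libraries 1, 2 and 3 they were 21300, 19900 and 21600 CPM. Neither outlying Cebpd library stood apart in these sums. The part of immediate early genes in the Cebpd difference was not tested. Cebpd is a single-exon gene on chromosome 16 at 15887286 to 15891031, and 15% of its exon length is also covered by exons of Spidr on the opposite strand, and reads there cannot be told apart where strand was not used.

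Cebpa (chr7:35119293-35121928), which with PPAR-gamma maintains the fat cell state, was not tested. It had 6, 3 and 4 counts in muscle libraries 2, 3 and 4 and 4, 7 and 7 counts in lymph node libraries 1, 2 and 3. At 10.8 CPM the shallow muscle library 4 was above the other 5, which lay between 2.28 and 3.19 CPM. The muscle to lymph node ratio of summed counts was 1.27, with a 95% counting interval from 0.572 to 2.74. Without muscle library 4 the Cebpa mean was 2.74 in muscle, beside 2.83 CPM in lymph node. Cebpb (chr2:167688915-167690418), the other early C/EBP factor, had 7, 1 and 0 counts in muscle and 7, 3 and 3 counts in lymph node. Its ratio was 1.08, with an interval from 0.389 to 2.82. Without muscle library 4 its mean was 2.23 in muscle, beside 2.22 CPM in lymph node. Differences within these intervals were not detectable at this depth. Of the Cebpb exon, 20.7% is also covered by exons of Tmem189 on the opposite strand. The coding transcript of Cebpb is a single exon of 67.2% G and C, and that of Cebpa a single exon of 62.6%, against 51.6% for Cebpd. Among 129 protein-coding genes of at least 65% G and C in the longest coding transcript, 8.53% passed the filter for testing, against 47.1% of all 21662 protein-coding genes. This value was computed after the low Cebpb counts were seen, and its part in the Cebpb level was not tested.

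Zfp423 (chr8:87661810-87959595, minus strand) encodes a zinc finger factor that marks committed fat cell precursors. It measured 68.0, 54.6 and 51.1 CPM in muscle libraries 2, 3 and 4 and 26.3, 24.9 and 36.9 CPM in lymph node libraries 1, 2 and 3. All muscle libraries were above all lymph node libraries, and muscle library 4 was close to the other muscle libraries. The log2 fold change was 1.00 ± 0.25, a 2.00-fold higher level, with a 95% interval from 0.43 to 1.57 and an edgeR adjusted p of 0.0624. It passed without muscle library 4 (1.06 ± 0.22, adjusted p = 0.00497), by DESeq2 (1.01, adjusted p = 0.0373) and by limma-voom (1.05, adjusted p = 0.0276). It did not pass with no filter on low counts (0.85, edgeR adjusted p = 0.269) or when 1 of the other 5 libraries was left out (0.83 to 1.17, adjusted p from 0.144 to 0.37). The 5 mural cell markers also summed higher in muscle (91.8 to 102 against 28.7 to 34.8 CPM). This was mostly through Cspg4 (69.9 to 81.5 against 6.85 to 11.4 CPM). The other mural markers, Rgs5, Notch3, Acta2 and Myh11, overlapped between the tissues. Among them Notch3 measured 8.97, 12.3 and 5.38 in muscle and 14.8, 13.3 and 10 CPM in lymph node, and Acta2 was 0 in muscle library 4. The part of mural cell RNA in the Zfp423 difference was not tested. Zfp521, a related zinc finger gene known to oppose adipogenesis, measured 155 ± 13.8 in muscle and 146 ± 12.2 CPM in lymph node. Its log2 fold change of 0.09 ± 0.18 was not called (edgeR adjusted p = 0.888), was 0.08 ± 0.15 without muscle library 4, and turned to -0.01 without muscle library 3 and to -0.09 with no filter on low counts.

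Ebf1 (chr11:44617317-45008091) and Ebf2 (chr14:67233292-67430918) encode related early B cell factors, which bind DNA as dimers and act in fat precursors as well as in B cells (EBF1) and brown fat precursors (EBF2). Ebf1 measured 463, 599 and 476 CPM in muscle libraries 2, 3 and 4 and 560, 517 and 615 CPM in lymph node libraries 1, 2 and 3. The tissues overlapped, and the log2 fold change was -0.14 ± 0.18 with a 95% interval from -0.54 to 0.27 (edgeR adjusted p = 0.805). In muscle library 4, where the summed B cell markers were 2020 CPM, Ebf1 was within the range of the other muscle libraries. The Ebf1 to Ebf2 ratio per kilobase was highest there, at 1.93, and between 1.04 and 1.34 in the other libraries. The part of B cell RNA in the Ebf1 counts of that library was not tested. Ebf2 measured 298, 318 and 175 in muscle and 297, 353 and 348 CPM in lymph node. Muscle library 4 was the low one, and without it the log2 fold change went from -0.32 ± 0.23 (interval -0.84 to 0.21, edgeR adjusted p = 0.615) to -0.12 ± 0.14 (adjusted p = 0.685). The third measured family member, Ebf3, gave 30.7 ± 5.99 in muscle and 22.9 ± 4.08 CPM in lymph node (0.36 ± 0.30, edgeR adjusted p = 0.658, and 0.23 ± 0.26 without muscle library 4). The coefficient of variation of Ebf1 was 14.7% in muscle and 8.73% in lymph node, against 75.6% and 58.4% for Cebpd.

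**Figure D3:**
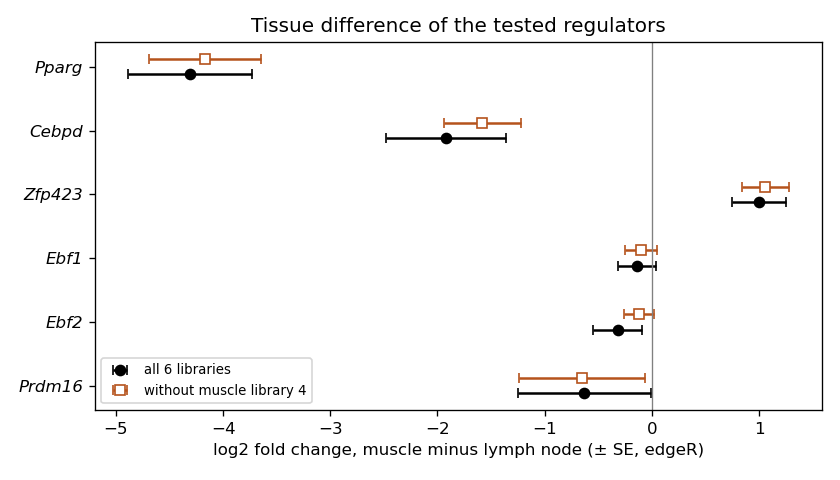
Log2 fold change, muscle minus lymph node, of the 6 tested genes (horizontal axis, bars are ± 1 SE from edgeR), with all 6 libraries as filled circles and without muscle library 4 as open squares. Pparg lies at -4.31 and -4.17, Cebpd at -1.92 and -1.58, Zfp423 at 1.00 and 1.06, and Ebf1 and Ebf2 between -0.32 and -0.10.

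The regulators of the thermogenic programme were near the limit of detection. Prdm16 (chr4:154316125-154636873, minus strand), which steers precursors to the brown fat fate, measured 6.86, 2.31 and 5.38 CPM in muscle libraries 2, 3 and 4 and 3.43, 8.59 and 10.5 CPM in lymph node libraries 1, 2 and 3. The tissues overlapped (-0.63 ± 0.62, interval -2.02 to 0.76, edgeR adjusted p = 0.721), and without muscle library 4 the value was -0.65 ± 0.59 (adjusted p = 0.589). It was -1.24 without muscle library 2 and -0.25 without muscle library 3. Ppargc1a (chr5:51454250-51567726, minus strand), the coactivator of mitochondrial biogenesis, had 6, 14 and 0 counts in muscle and 3, 4 and 3 in lymph node. Muscle library 3 held 14 of the 20 muscle counts. Without muscle library 4 the Ppargc1a mean was 6.96 in muscle, beside 1.60 CPM in lymph node. The summed counts gave a muscle to lymph node ratio of 3.52 (95% counting interval 1.57 to 8.41), and a fit with no filter, which alone could include this gene, gave 1.55 on the log2 scale (edgeR adjusted p = 0.724). Ppargc1a is also a gene of muscle fibres, and 8 fibre markers summed to between 48.4 and 83.0 in muscle and between 11.4 and 12.3 CPM in lymph node. Tnnc2 was at 0 counts in all 6 libraries, and Myh4, Myh1 and Mylpf overlapped between the tissues. In muscle library 4 Acta1, Ckm and Tnnt3 were at 0 counts, and Atp2a1 made up 34.9 CPM of the sum. The part of fibre RNA in the Ppargc1a counts was not tested.

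Genes that fat cells use to take up and store lipid, many of them known PPAR-gamma targets, came next. Of 33 genes of the adipocyte list, which includes Pparg and Cebpa, 19 were tested: 7 were called lower in muscle, Pparg among them, 1 was called higher, 11 were not called, and 14 had too few counts. The median log2 fold change of the 19 was -0.22, beside 0.02 for all tested genes, and 7 and 1 calls compare with 2.86% and 1.46% of all genes. A gene can pass the filter through its high tissue alone, as Pparg, Cd36, Fabp4 and Plin4 did, so these counts do not describe all 33 genes. The same limit holds for the counts of the lists below. Without muscle library 4, 20 genes were tested, of which 7 fell and 2 rose, against 7.58% and 4.79% of all genes.

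Cd36, the fatty acid uptake receptor, measured 2.64, 1.54 and 2.69 CPM in muscle libraries 2, 3 and 4 and 118, 101 and 94.7 CPM in lymph node libraries 1, 2 and 3, with no overlap (log2 fold change -5.50 ± 0.32, edgeR adjusted p = 7.23e-05). Its 8 muscle counts against 650 correspond to a 46.2-fold difference (95% counting interval 23.3 to 107). Fabp4, a fatty acid carrier protein, measured 1.05, 1.54 and 5.38 in muscle and 24.0, 31.8 and 28.7 CPM in lymph node (log2 fold change -3.94 ± 0.53, edgeR adjusted p = 0.00359). Plin4, a lipid droplet coat protein, measured 2.45 ± 0.774 in muscle and 30.9 ± 0.772 CPM in lymph node (log2 fold change -3.72 ± 0.42, edgeR adjusted p = 0.00143). Fabp4 and Plin4 were each lower in every muscle library than in any of lymph node. Lpl, the lipase that frees fatty acids from lipoproteins, fell from a high level, at 582, 592 and 368 in muscle and 1890, 2190 and 2040 CPM in lymph node (log2 fold change -1.98 ± 0.22, edgeR adjusted p = 0.00136). Without muscle library 4 the log2 fold changes were -5.54 ± 0.31 for Cd36, -4.43 ± 0.46 for Fabp4, -3.78 ± 0.40 for Plin4 and -1.80 ± 0.14 for Lpl, all called. The other called genes, named here after their values were seen to complete the count, were the lipase inhibitor Angptl4 (-4.30 ± 0.61), the droplet protein Plin2 (-1.32 ± 0.20) and, rising in muscle, the desaturase Scd1 (0.96 ± 0.22), and they were -4.51, -1.36 and 0.77 without muscle library 4. The Angptl4 value was -5.03 without muscle library 2 and -3.68 without muscle library 3. Plin2 lost its call without lymph node library 2 (adjusted p = 0.0592), and Scd1 when 1 library, other than muscle library 4, was left out (adjusted p up to 0.292).

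Genes that mark the mature fat cell itself were near 0 in both tissues. The hormone gene Adipoq had 2 counts over the muscle libraries and 6 over those of lymph node, and Plin1, the main droplet coat protein of fat cells, 1 and 9. Cd36, Fabp4 and Lpl are also genes of endothelial cells and macrophages. The 6 endothelial markers summed to between 199 and 381 in muscle and between 277 and 357 CPM in lymph node. Of these sums Tek made up between 121 and 366 CPM. Cdh5 was at most 1.54 CPM in any library, at 0 in muscle library 4, Kdr at most 5.38 and Emcn at most 3.44 CPM. Pecam1 reached 59.1 CPM in muscle library 4 but did not exceed 3.84 CPM elsewhere. Plvap was 3.16, 2.31 and 13.4 in muscle and 7.99, 7.73 and 9.56 CPM in lymph node. The 10 myeloid markers summed to 14.2, 16.9 and 228 CPM in muscle libraries 2, 3 and 4 and to between 21.1 and 30.5 CPM in lymph node. They were not uniform. Cd68 was 0.527, 2.31 and 0 in muscle and 3.43, 7.3 and 15.5 CPM in lymph node. In muscle library 4 Csf1r and Itgam were at 0 too, whereas Lyz2 was 83.3, Cd14 51.1 and S100a9 45.7 CPM. The part of endothelial or myeloid RNA in the Cd36, Fabp4 and Lpl counts was not tested.

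**Figure D4:**
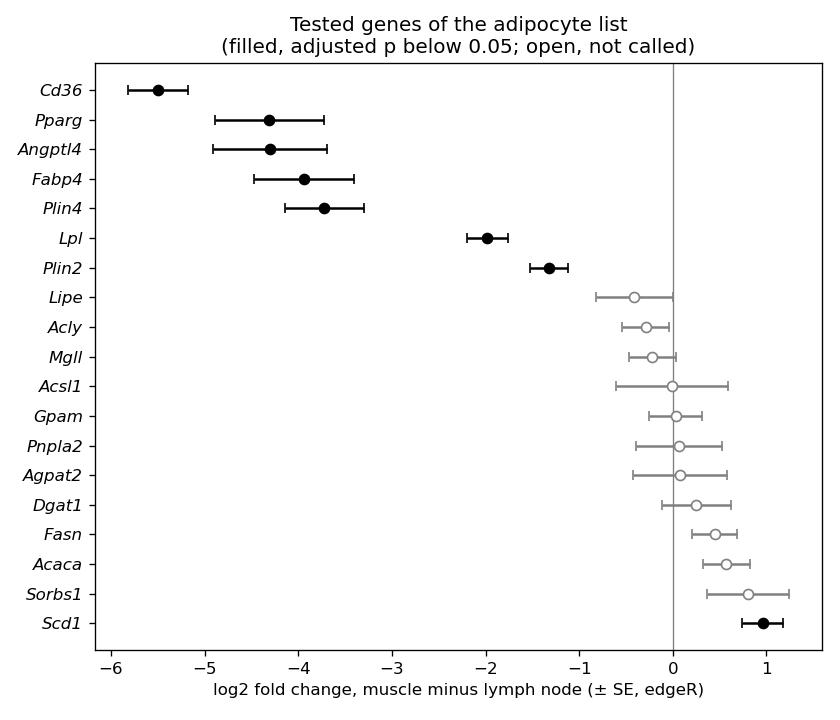
Log2 fold change, muscle minus lymph node (horizontal axis, bars are ± 1 SE from edgeR), of the 19 tested genes of the adipocyte list, filled where the adjusted p was below 0.05 and open where it was not. The 7 filled points to the left, from Cd36 at -5.50 to Plin2 at -1.32, fell in muscle, and Scd1 at 0.96 rose.

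Most other regulators of adipogenesis were not called. Of 49 listed, 41 were tested: 3 were called lower in muscle, 0 higher and 38 neither, against 2.86% lower and 1.46% higher of all genes, with a median log2 fold change of -0.02. Those that fell were Egr2, an early gene that promotes adipogenesis (-3.59 ± 0.38, edgeR adjusted p = 0.00114), the Krüppel-like factor Klf4 (-1.63 ± 0.19, adjusted p = 0.00177) and the deacetylase Sirt1, known to repress PPAR-gamma (-2.76 ± 0.60, adjusted p = 0.0325). Egr2 and Klf4 respond early to cell stress as well, as the immediate early genes above do. Sirt1 had 10 muscle counts and lost its call without muscle library 2 or 3 or lymph node library 2 or 3, with adjusted p reaching 0.199 and values of -2.28 and -3.42 without muscle library 2 and 3. Sirt1 also passed the filter for testing through lymph node alone. Without muscle library 2 the Egr2 value was -4.42. Without muscle library 4 the values were -3.46 ± 0.31 for Egr2, -1.60 ± 0.16 for Klf4 and -2.79 ± 0.56 for Sirt1, and 9 of the 41 fell and 3 rose, against 7.58% and 4.79% of all genes.

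The dimer partner of PPAR-gamma, Rxra, was present at 34.7 ± 6.65 in muscle and 42.2 ± 9.24 CPM in lymph node (-0.24 ± 0.27, interval -0.84 to 0.36, edgeR adjusted p = 0.763), with -0.17 ± 0.24 without muscle library 4. Ppard, a receptor of the same family as Pparg, measured 5.61 ± 1.14 and 6.47 ± 2.86 CPM (-0.19 ± 0.53, adjusted p = 0.925), with -0.17 ± 0.53 without muscle library 4 and a direction that turned to 0.11 without lymph node library 3. Ppara had 6 counts over the muscle libraries and 19 over those of lymph node, and Ppargc1b, a coactivator related to PGC-1-alpha, 11 and 12, and neither was tested. Pparg was the PPAR gene with a called difference, but the difference between the receptors' changes was not itself tested.

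Of 25 brown and beige fat genes 9 were tested: 1 was called higher in muscle, 2 lower and 6 neither (median log2 fold change -0.14), against 1.46% higher and 2.86% lower of all genes. There were again 1 higher and 2 lower without muscle library 4, against 4.79% and 7.58%. Lhx8, near 0 in muscle, and Dio2, low in lymph node, passed the filter for testing through their high tissue alone. Dio2, the deiodinase that activates thyroid hormone, rose (4.52 ± 0.40, edgeR adjusted p = 4.68e-04), with 61.2 ± 9.78 in muscle and 2.67 ± 1.36 CPM in lymph node. Lhx8, a homeobox gene, fell (edgeR adjusted p = 5.50e-04), with 1 muscle count, in library 2, against 244 over the lymph node libraries (139-fold, 95% counting interval 24.7 to 5500). Pdk4, a kinase that restrains glucose oxidation and a known PPAR target, measured 12.7, 13.1 and 8.06 in muscle and 42.8, 46.8 and 45.1 CPM in lymph node (log2 fold change -1.90 ± 0.28, edgeR adjusted p = 0.00570). Leaving out lymph node library 2 or 3 ended this call (adjusted p up to 0.0592). Dio2 (4.52 ± 0.35), Pdk4 (-1.81 ± 0.24) and Lhx8 were also called without muscle library 4. The uncoupling protein gene Ucp1, which defines thermogenic fat, had 3 muscle counts, all in library 2, and 0 in the lymph node libraries, and no fold is given.

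Genes of fat cell precursors were called in both directions. Of 22 listed, 20 were tested: 3 were called higher in muscle, 1 lower and 16 neither (median log2 fold change -0.10), against 1.46% higher and 2.86% lower of all genes. The counts without muscle library 4 were 4, 3 and 13, against 4.79% and 7.58%. The tetraspanin Cd9 (1.94 ± 0.21, edgeR adjusted p = 0.00116), the growth factor Bmp4 (1.82 ± 0.30, adjusted p = 0.00856) and the WNT modulator Sfrp4 (1.15 ± 0.27, adjusted p = 0.0498) rose, and the adhesion molecule Icam1, which also responds to inflammation, fell (-1.99 ± 0.29, adjusted p = 0.00507). Bmp4 lost its call without muscle library 3 or lymph node library 1 or 3, with adjusted p reaching 0.0842, and Sfrp4 when 1 library, other than muscle library 4, was left out (up to 0.275). The 4 genes were also called without muscle library 4, at 2.07 ± 0.15 (Cd9), 1.91 ± 0.25 (Bmp4), 0.88 ± 0.19 (Sfrp4) and -2.33 ± 0.17 (Icam1). The mural marker sums given above, carried mostly by Cspg4, were higher in muscle as were Cd9, Bmp4 and Sfrp4. The part of mural cell RNA in these genes was not tested. Pdgfra, the receptor that marks these precursors, measured 1190, 1330 and 651 CPM in muscle libraries 2, 3 and 4 and 1390, 1340 and 1490 CPM in lymph node libraries 1, 2 and 3. Its log2 fold change was -0.41 ± 0.26 (interval -0.98 to 0.17, edgeR adjusted p = 0.536) and -0.17 without muscle library 4. Dlk1, a precursor gene that restrains differentiation, had 5 and 8 counts, not scaled to library size, and was not tested.

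The profile of each tested member over the 6 libraries was compared with those of other named genes of at least 20 mean CPM, as the root mean square difference of log2 CPM after each gene was centred on its mean. A prior count of 2 was added, and all 6 libraries were used. With 4 muscle counts the Pparg profile in muscle is set largely by that prior count. The profiles share their libraries, so the list is a description. A gene picked for likeness to a member shares its tissue difference by that choice, so the fold changes here are no separate result. Nearest to Pparg were the prostaglandin synthase Ptgs2 (difference 0.27) and the matricellular gene Cyr61 (0.32). Both were lower in muscle (log2 fold change -3.31 ± 0.24 and -3.12 ± 0.25), and both are also immediate early genes. Nearest to Cebpd were Gda (0.39) and Itga2b (0.42), and nearest to Zfp423 were Lbp (0.12), higher in muscle (1.10 ± 0.20), and Sft2d2 (0.15). Ebf1 lay nearest to Bace1 (0.05) and Rbm27 (0.07), and Ebf2 nearest to Pygb (0.05) and Runx1t1 (0.06). Prdm16 lay nearest to Nelfe (0.19) and Pspc1 (0.27). A small difference from a gene that is even across libraries, as for Ebf1, says only that both were even.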

How the data were processed

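The authors deposited unnormalized counts by gene symbol for 6 libraries. Each library began from 1000 sorted cells, per the labels' protocols, and polyadenylated RNA was amplified as cDNA and read in pairs of 25 bases. Per the submitters' processing notes, STAR 2.5.4 and featureCounts were used with mm10, and annotation, strand setting and treatment of multiply aligned reads are not stated there. The protocol names no molecular identifiers, so intervals and floors (3 counts, 95% exact binomial) cover counting error only. Muscle columns carry other numbers than the muscle titles and were assigned by tissue alone.

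Counts were tested with edgeR 4.0.16 in R 4.3.3 (filterByExpr, TMM, quasi-likelihood F test on tissue, two-sided, Benjamini-Hochberg over 10823 genes, threshold 0.05). CPM uses TMM library sizes, and a log2 fold change is muscle minus lymph node. Its SE follows from the fold change and F. P-values measure the spread between these libraries, which may be partly technical. Exon lengths come from GENCODE M21 (GRCm38), where 49439 symbols (93.3%) matched. DESeq2 1.42.0, limma-voom (limma 3.58.1), other scalings and filters, a replicate block and leaving out each library were alternatives. The scripts were tested on simulated data.

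The members and lists were chosen with earlier results of these data known. The naming rule takes all members, up to 5 called genes per list by smallest p, 12 genes given in advance and the 2 nearest profiles per tested member. Models without an official name were passed over.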

Additional observations from a re-analysis of the deposited data

How the results depend on the processing

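The number of members called was 1 with all 6 libraries and under RLE, upper-quartile and library-total scaling and the stricter filter (10 CPM in at least 3 libraries). It was 2 with no filter (Pparg and Cebpd lower), 2 by limma-voom (Pparg lower, Zfp423 higher) and 3 by DESeq2 (Pparg and Cebpd lower, Zfp423 higher). Leaving out 1 library gave between 1 and 3, the latter without muscle library 4. The number of other listed adipogenic genes called was 17 with all libraries and between 12 and 30 when 1 library was left out, with 30 without muscle library 4. Apart from fewer samples in the fits that leave 1 out, the cause of these shifts was not tested. With the column number as a replicate block, which leaves libraries 2 and 3 of each tissue to carry the comparison, 3 members and 35 other listed genes were called. Muscle columns and titles are numbered differently, and the library 2 minus 3 differences of the tissues had r = 0.0521 across 10823 genes. A low r can also come from noise between libraries, so it is not known here whether the numbers pair these samples. Over 83 values of the 6 tested members under alternatives, 0 reversed, 75 kept direction and side of the threshold and 8 passed it newly, all of Cebpd or Zfp423. Of 264 values of 19 other named genes, 3 reversed (Zfp521 at -0.09 with no filter, and 1 left-out library each for Ppard, between -0.49 and 0.11, and Zfp521, between -0.01 and 0.13) and 17 lost a call. The median Ebf1 to Ebf2 ratio per kilobase was 1.59 with the longest coding transcript as length. Depth limits Cebpa, Cebpb, Ppargc1a and Prdm16, at 8 to 49 counts per tissue, and muscle library 4 most of all.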
